A study of Mus musculus with 51 samples.

Results

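The genes described here are 9 markers of macrophages and microglia, followed through dorsal root ganglia (DRG), hind paw skin and spinal cord of mice given the chemotherapy drug paclitaxel (PTX). They were taken by symbol from the 22609 gene symbols that every count table lists, and all 9 were found and passed the filter on low counts in every fit. P2ry12, Siglech and Gpr34 are 3 markers used for microglia, and Csf1r, Trem2, Aif1, Itgam, Cd68 and Mrc1 are 6 genes of macrophages in general. Their levels are given as CPM: the reads of a gene in every 1000000 reads assigned to genes in that library, and CPM values of different genes are not compared with each other because they are not corrected for gene length.

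The 51 libraries form 17 groups of 3, all from male C57 mice aged 8 to 12 weeks. PTX was given intraperitoneally at 2 mg/kg in 2 injections, and the control animals received vehicle. Hind paw punch biopsies and ganglia of lumbar levels 3 to 5 were each sampled with vehicle at day 2 and with PTX at days 2, 7, 22 and 35. Lumbar spinal cord came in 2 sets. Set A, with the source name Spinal cord, gave a vehicle and a PTX group at each of days 1 and 7. Set B, with the source name Spine, was sampled on days 1, 22 and 35 of PTX and had no vehicle. The days are those of the sample titles, which differ in part from the series text. The vehicle samples of ganglia and paw are of day 2, so at days 7, 22 and 35 the drug and the day cannot be told apart. The count tables of ganglia and paw at day 35 and of set B write their summary lines in another form than the rest. Whether those libraries were processed apart was not tested, and at day 35 it cannot be told apart from the day. No label says whether the 3 replicates of a group came from separate animals, so the p-values measure the spread between these samples, which may be technical.

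Microglia are the resident macrophages of the brain and spinal cord, and they arise from yolk sac precursors rather than from blood monocytes. Ganglia, nerve and skin hold macrophages of their own, and after nerve damage these are joined by monocytes from the blood. Csf1r, the receptor for the growth factors Csf1 and Il34, keeps both kinds of cell alive. P2ry12, a receptor for ADP that steers microglial processes towards injury, is often used with Siglech, a sialic acid binding lectin also carried by plasmacytoid dendritic cells, and Gpr34, a receptor for lysophosphatidylserine, to tell microglia from other macrophages. Trem2 is a lipid-sensing receptor that signals through the adaptor Tyrobp. Aif1 encodes the actin-binding protein Iba1, Itgam encodes the integrin chain CD11b that monocytes and neutrophils also carry, Cd68 encodes a lysosomal membrane protein, and Mrc1 encodes the mannose receptor CD206 of resident tissue macrophages. In whole tissue, fewer cells of a type and less RNA per cell cannot be told apart.

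The RefSeq table of promoters of build GRCm38.p6 holds a window for 7 of the 9 genes, from 250 bases before to 50 bases after the gene start. A stretch of 100 bases is shown for the 5 genes whose window holds either of 2 motifs searched on both strands. These are GAGGAAG and CACGTG, an E-box. GAGGAAG occurs in sites of PU.1, the transcription factor that macrophages depend on. The motifs are in capitals, and CTTCCTC is GAGGAAG read on the other strand.
Mrc1 promoter: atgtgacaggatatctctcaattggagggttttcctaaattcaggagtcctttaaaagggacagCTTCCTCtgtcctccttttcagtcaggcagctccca
Itgam promoter: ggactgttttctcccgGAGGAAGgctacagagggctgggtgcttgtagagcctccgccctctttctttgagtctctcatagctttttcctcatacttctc
Trem2 promoter: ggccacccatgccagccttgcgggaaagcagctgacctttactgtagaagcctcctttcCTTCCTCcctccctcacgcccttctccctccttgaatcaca
P2ry12 promoter: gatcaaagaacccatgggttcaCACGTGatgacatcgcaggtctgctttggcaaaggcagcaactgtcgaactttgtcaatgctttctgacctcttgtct
Siglech promoter: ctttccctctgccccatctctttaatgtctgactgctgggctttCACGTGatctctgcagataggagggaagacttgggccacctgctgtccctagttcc

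The stretches end 1 base before the gene start, except that of P2ry12, which runs from base -250 to base -151. They lie at chr2:14229314-14229413 on the plus strand for Mrc1, chr7:128062540-128062639 on the plus strand for Itgam, chr17:48346301-48346400 on the plus strand for Trem2, chr3:59263136-59263235 on the minus strand for P2ry12 and chr7:55768084-55768183 on the plus strand for Siglech, all in GRCm38.p6. GAGGAAG was in the windows of 3 of the 7 genes, all of the general macrophage class, and in 13.6% of all 32851 windows in the table. CACGTG was in the windows of 2 of the 7, both microglial markers, and in 7.15% of all windows. The windows of Mrc1 and Itgam hold GAGGAAG once more, at bases -168 and 32 from the start, outside the stretches shown. The shorter GAGGAA, without the last letter, also occurs in the window of the microglial marker Siglech, so the split by class depends on the letters searched. A match describes the letters only.

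Libraries held between 13346971 and 30247230 reads assigned to genes. Paw vehicle replicate 2 stood out in its other reads. Per 100 reads assigned to genes it held 44.1 reads in no gene and 157 aligned to several places. The other paw libraries held 16.8 to 23.7 and 103 to 117. What this meant for its values was not tested. The tissues carried the defining genes of their labels: the summed level of 10 keratinocyte genes was at least 36624 CPM in every paw library and at most 262 CPM elsewhere, and that of 10 oligodendrocyte and astrocyte genes was at least 2596 CPM in every cord library and at most 1019 CPM elsewhere. Skeletal muscle genes varied widely within groups, with sums of 12337 to 30860 CPM in paw vehicle and 1562 to 35742 CPM in paw at PTX day 35. In DRG vehicle they summed to 51.1, 91.1 and 2488 CPM. The summed level of 10 sensory neuron genes was at least 4108 CPM in every DRG library, but it was also high in 5 of the 6 day 1 libraries of cord set A. These 5 libraries, PTX day 1 replicates 1 to 3 and vehicle day 1 replicates 2 and 3, held between 1176 and 3400 CPM of the sensory neuron genes. The other 16 cord libraries held between 95.0 and 187 CPM. Scn10a, a sodium channel of nociceptors that the spinal cord itself hardly expresses, stood at 754 CPM in PTX day 1 replicate 1 and at 0.383 CPM in vehicle day 1 replicate 1. For the macrophage and microglia markers, calls in cord comparisons are also described without these 5 libraries wherever the comparison can still be made. Log2 fold changes between tissues, many of those within cord, and the cord results of the wider gene lists are given with them only.

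**Figure D1:**
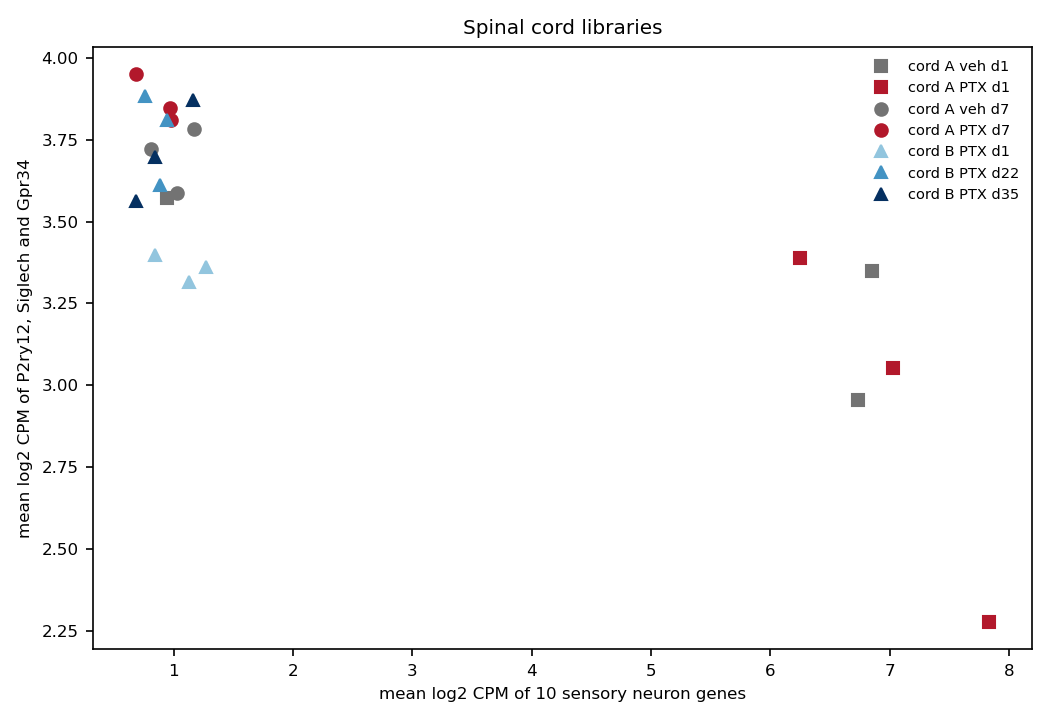
Mean log2 CPM of P2ry12, Siglech and Gpr34 (vertical axis) against the mean log2 CPM of 10 sensory neuron genes (horizontal axis) in each of the 21 spinal cord libraries, with 1 symbol a library. The 5 set A day 1 libraries at the right stand between 6.25 and 7.84 on the horizontal axis, the other 16 at 1.27 or lower, and PTX day 1 replicate 1 has the lowest microglial level, 2.28.

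In the 5 libraries with sensory neuron transcripts most of the 9 genes stood low for spinal cord. Csf1r ranged there from 57.1 to 95.3 CPM with a median of 72.9, against 101 to 127 CPM with a median of 112 in the other 16 cord libraries. Trem2 ranged from 2.77 to 6.28 CPM there and from 6.52 to 11.8 CPM in the other 16. For these genes the ranges did not meet. P2ry12 had a median of 17.5 CPM in the 5 and 24.7 CPM in the 16, with ranges that overlapped. Mrc1 went the other way, with a median of 11.3 CPM in the 5 and 5.33 CPM in the 16, and again the ranges overlapped. What the sensory neuron transcripts contributed to these levels was not tested.

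Between the tissues of vehicle animals, the markers called microglial did not behave as a block. P2ry12 and Siglech were higher in cord than in either peripheral tissue, whereas Gpr34 was not called between paw and cord and was low in DRG. Among the general genes, Mrc1 and Cd68 were highest in paw, and Csf1r, Trem2 and Itgam were lowest in DRG. Aif1 did not pass the test in any of the 3 comparisons of tissues. The test was edgeR's quasi-likelihood F test over the 12 vehicle libraries, with Benjamini-Hochberg adjustment over all genes, and a gene is said to be called when its adjusted p is under 0.05.

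P2ry12 had 25.4, 20.4 and 16.2 CPM in cord vehicle day 1 and 24.1, 25.1 and 24.7 CPM in cord vehicle day 7. It had 5.64, 6.53 and 5.76 CPM in DRG vehicle and 6.61, 4.66 and 10.1 CPM in paw vehicle. Every cord library stood above every peripheral one, while DRG and paw overlapped. The log2 fold change of cord over DRG was 1.83 ± 0.22 (SE, adjusted p = 1.73e-05 by edgeR) and that of cord over paw 1.62 ± 0.21 (adjusted p = 1.5e-05). DRG and paw differed by a log2 fold change of -0.21 ± 0.24 (adjusted p = 0.424 by edgeR), which was not called.

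Siglech had between 5.87 and 10.4 CPM in the 6 cord vehicle libraries, 1.14, 1.46 and 0.476 CPM in DRG vehicle and 2.66, 1.09 and 2.86 CPM in paw vehicle. The cord libraries again stood above all others. Cord exceeded DRG by a log2 fold change of 2.96 ± 0.37 and paw by 1.90 ± 0.34 (adjusted p = 2.87e-05 and 0.000204 by edgeR). DRG was lower than paw by a called log2 fold change of -1.06 ± 0.42, although their libraries overlapped. In DRG the Siglech counts were as low as 10 reads in a library, so its values there are coarse.

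Gpr34 broke from the other microglial markers. It had 8.03, 5.63 and 12.7 CPM in paw vehicle and between 4.71 and 9.80 CPM in cord vehicle, and only 1.04, 1.51 and 1.43 CPM in DRG vehicle. Paw and cord overlapped, and DRG stood apart below both. The log2 fold change of cord over paw was -0.26 ± 0.23 (adjusted p = 0.294 by edgeR), while DRG was lower than paw by 6.43-fold, a log2 fold change of -2.68 ± 0.31 (adjusted p = 4.21e-06).

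Csf1r had 30.3, 48.0 and 37.65 CPM in DRG vehicle, 101, 82.1 and 132 CPM in paw vehicle and between 69.9 and 116 CPM in cord vehicle. The DRG libraries lay below all others, and paw and cord overlapped. DRG was lower than paw by a log2 fold change of -1.40 ± 0.21 and lower than cord by 1.22 ± 0.19 (adjusted p = 7.36e-05 and 0.000186 by edgeR). Trem2 was likewise lowest in DRG, with 1.19, 1.32 and 1.10 CPM in DRG vehicle, 4.45, 5.12 and 7.65 CPM in paw vehicle and between 5.25 and 8.57 CPM in cord vehicle. Its log2 fold change was -2.21 ± 0.25 for DRG over paw and 2.46 ± 0.23 for cord over DRG, both called, and 0.25 ± 0.19 for cord over paw, not called. Itgam was lower in DRG than in paw by a log2 fold change of -1.11 ± 0.44 and higher in cord than in DRG by 1.05 ± 0.40, both called, but its 3 DRG libraries ranged from 3.89 to 15.8 CPM.

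Mrc1 and Cd68 set paw apart from cord. Mrc1 had 50.1, 41.0 and 69.7 CPM in paw vehicle, 8.72, 21.7 and 16.7 CPM in DRG vehicle, and 13.8, 8.10 and 8.53 CPM at day 1 and 5.12, 8.35 and 6.37 CPM at day 7 in cord vehicle. The paw libraries stood above every other vehicle library. Cord was lower than paw by 6.71-fold, a log2 fold change of -2.75 ± 0.28 (adjusted p = 2.63e-06 by edgeR), and Mrc1 was the only one of the 9 genes called lower in cord than in DRG (-1.02 ± 0.29, adjusted p = 0.00941). Cd68 was lower in cord than in paw by a log2 fold change of -1.16 ± 0.22 and higher in cord than in DRG by 0.63 ± 0.24, both called. Aif1 stayed between 1.15 and 4.43 CPM in all 12 vehicle libraries, with no separation of the tissues.

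These counts stand on a high background, because the tissues differ in most genes. DRG against paw called 7 of the 9 genes, all lower in DRG, and 80.2% of all genes. Cord against DRG called 8 of the 9, with 7 higher and 1 lower in cord, and 62.1% of all genes. Cord against paw called 4 of the 9, P2ry12 and Siglech higher and Cd68 and Mrc1 lower in cord, and 84.1% of all genes. With the 5 cord libraries left out, Itgam in DRG against paw had an adjusted p of 0.0503 and Mrc1 in cord against DRG one of 0.0714 by edgeR, and no other call among the 9 was lost or gained in the 3 comparisons. The calls of Siglech and Itgam in DRG against paw and of Itgam and Cd68 in cord against DRG were each lost when any of several single libraries was left out, with adjusted p as high as 0.136, 0.147, 0.105 and 0.137 by edgeR, and that of Mrc1 in cord against DRG was lost without DRG vehicle replicate 2 (adjusted p = 0.0663). In cord against paw, Gpr34 was called lower in cord at -0.53 without paw vehicle replicate 2 (adjusted p = 0.0381), and Trem2 was called higher at 0.52 without replicate 3 (adjusted p = 0.0192).

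**Figure D2:**
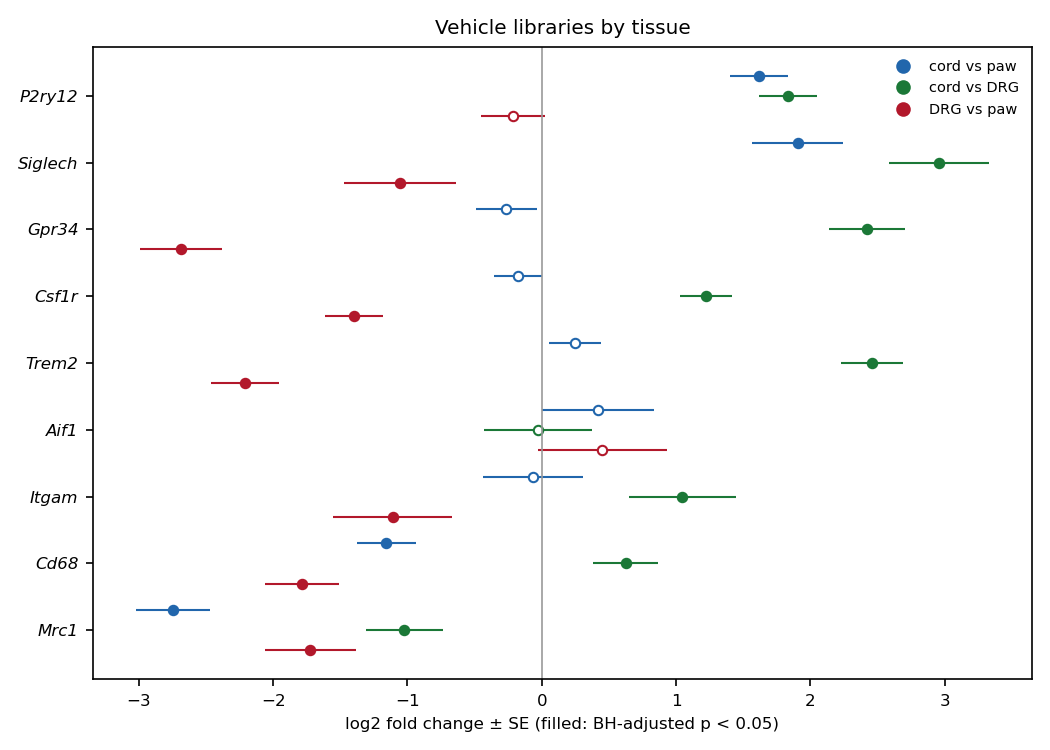
Log2 fold change (horizontal axis, with its standard error) of each gene in the 3 comparisons between vehicle tissues, filled where the adjusted p was under 0.05 and open where it was not. P2ry12 and Siglech lie to the right in both comparisons with cord, Mrc1 lies to the left in all 3, and Aif1 is open in all 3.

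A list of 12 further microglia genes showed the same unevenness. Between cord and paw, 8 were called higher in cord and 3 lower, where 43.7% of all genes were called higher and 40.4% lower, so a count of 11 called is near the background. Sall1, a transcription factor of microglia, was higher in cord by a log2 fold change of 5.09 ± 0.23 and Cx3cr1, the fractalkine receptor, by 3.10 ± 0.29, whereas Olfml3 was lower by -1.24 ± 0.15 and Tmem119 by -0.57 ± 0.16. Against DRG, Tmem119 was higher in cord by 2.17 ± 0.19 and P2ry13, the neighbouring ADP receptor gene, by 3.35 ± 0.34. Of 17 genes of resident and border macrophages, all 17 were called lower in cord than in paw, with a median log2 fold change of -3.64, and 15 were called lower in DRG than in paw, where 39.2% of all genes were. The median over all genes was 0.06 for cord over paw and 0.03 for DRG over paw. Lyve1, a hyaluronan receptor of such macrophages and of lymphatic vessels, was lower in cord by a log2 fold change of -3.93, and Folr2, a folate receptor, by -3.67. All 10 fat cell genes were lower in cord than in paw too, so these are differences of whole tissues, and expression of a gene outside macrophages was not separated.

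The difference between the mean log2 CPM of the 3 microglial and the 6 general genes was taken in each library as a description of their balance. Group medians of this difference lay between -1.99 and -1.45 in DRG, between -2.58 and -1.63 in paw, and between -0.36 and 0.47 in cord. No library of DRG or paw reached the lowest cord library, which stood at -0.85 and was the PTX day 1 library with the most sensory neuron transcripts. Within paw the balance was lowest at PTX day 22, at -2.68, -2.58 and -2.16 in its 3 libraries in rising order, against -2.04 to -1.46 for vehicle and -2.21 to -1.47 at PTX day 7. The 3 libraries of day 22 therefore lay below those of vehicle and overlapped those of day 7.

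**Figure D3:**
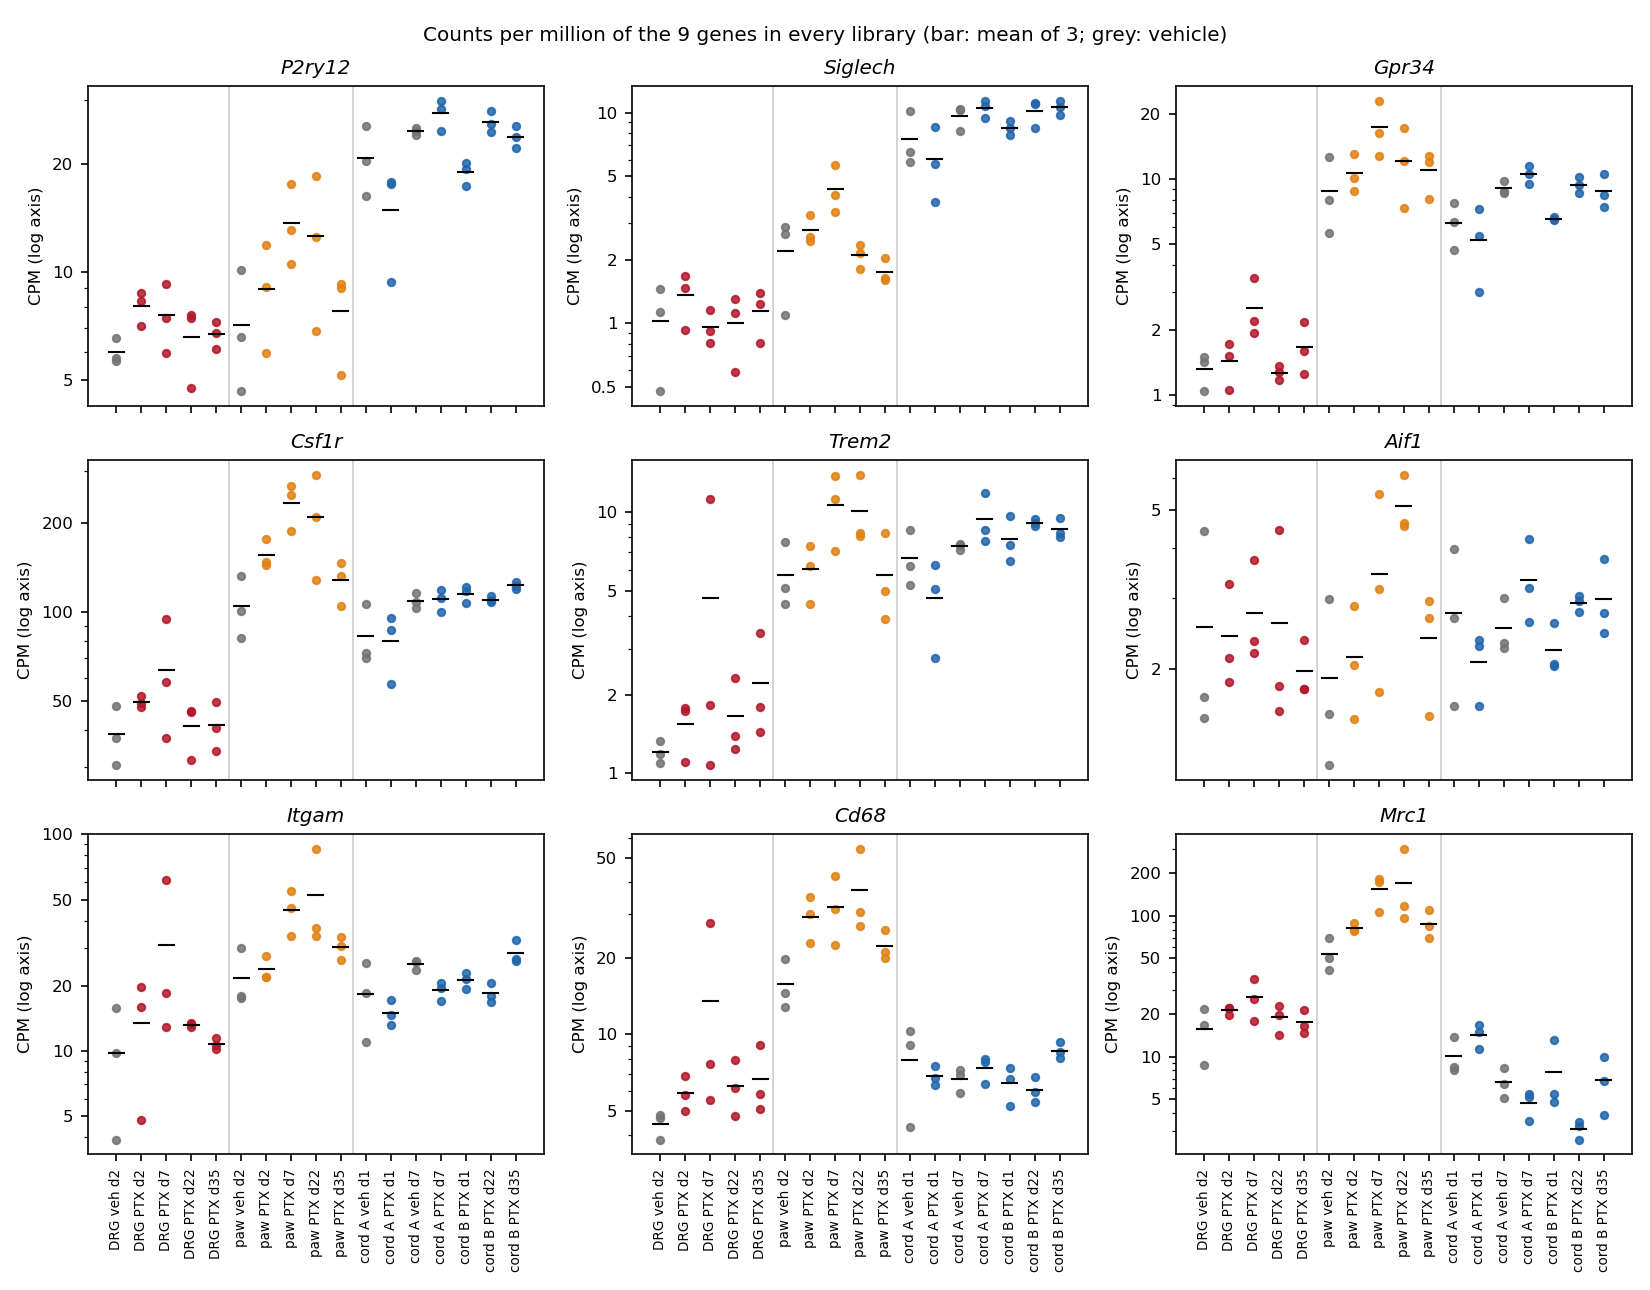
CPM of each gene (vertical log axis) in every library, by group (horizontal axis), with 1 point a library and a bar at the mean of 3. Grey points are vehicle, red is DRG, orange is paw and blue is spinal cord. Within paw the general macrophage genes stand highest at PTX days 7 and 22, and in DRG at day 7 a single library lies far above the rest for Trem2, Itgam and Cd68.

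After PTX, none of the 9 genes was called in DRG at any day. The background was also low, with 0% of 15333 genes called at day 2, 0.157% at day 7, 0% at day 22 and 0.209% at day 35. At an unadjusted p under 0.05, day 2 had 1 of the 9 genes, day 7 had 6, and days 22 and 35 had 0, against 1168, 3438, 1357 and 1987 of all genes. DESeq2 called 0, 898, 43 and 151 genes at the 4 days, and among the 9 only Trem2 and Cd68 at day 7. A joint test over the 4 PTX days called 0 of the 9 genes and 0.0196% of all genes.

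Day 7 in DRG turned on a single library. Replicates 1 to 3 of PTX day 7 had Trem2 levels of 1.82, 11.2 and 1.07 CPM, and the vehicle libraries 1.19, 1.32 and 1.10 CPM. Itgam had 18.4, 61.4 and 12.95 CPM against 3.89, 9.77 and 15.8 CPM. Cd68 had 7.67, 27.5 and 5.51 CPM against 3.84, 4.795 and 4.66 CPM. Replicate 2 was the high one for all 3 genes, and only Cd68 had all PTX libraries above all vehicle libraries. The log2 fold changes were 1.89 ± 0.70 for Trem2, 1.60 ± 0.65 for Itgam and 1.55 ± 0.49 for Cd68 (adjusted p = 0.15, 0.185 and 0.12 by edgeR).

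Without replicate 2 the same log2 fold changes were 0.22 ± 0.40 for Trem2, 0.64 ± 0.57 for Itgam and 0.53 ± 0.26 for Cd68, and no gene of the table was called. Without replicate 3, Trem2, Cd68, Csf1r and Gpr34 were called, with adjusted p between 0.0301 and 0.0491 by edgeR. Replicate 2 also held 714 CPM of 9 monocyte genes and 2717 CPM of 11 neutrophil genes, against 281 and 277 CPM of the monocyte genes and 508 and 332 CPM of the neutrophil genes in replicates 1 and 3. The part of these cells in the 3 genes' values was not tested. Fat cell genes were high in all 3 libraries of day 7, from 161 to 214 CPM in sum against 82.15 to 121 CPM in vehicle.

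Gpr34 rested less on that library. It had 2.20, 3.48 and 1.94 CPM at PTX day 7 and 1.04, 1.51 and 1.43 CPM in vehicle, and the groups did not overlap. Its log2 fold change was 0.88 ± 0.28 (adjusted p = 0.108 by edgeR), and 0.60 ± 0.28 without replicate 2. Csf1r had 58.3, 94.7 and 37.6 CPM against 30.3, 48.0 and 37.65 CPM, and Mrc1 had 25.7, 35.6 and 17.9 CPM against 8.72, 21.7 and 16.7 CPM. These groups overlapped, with log2 fold changes of 0.66 ± 0.28 and 0.69 ± 0.31, and of 0.27 ± 0.24 and 0.43 ± 0.33 without replicate 2. P2ry12, Siglech and Aif1 differed from vehicle by 0.29 ± 0.18, -0.14 ± 0.41 and 0.07 ± 0.45 on the log2 scale, and by 0.12 ± 0.18, -0.29 ± 0.46 and -0.20 ± 0.51 without replicate 2.

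All PTX libraries lay above all vehicle libraries for P2ry12 and Cd68 at day 2, for Gpr34 and Cd68 at day 7, for none of the 9 genes at day 22 and for Trem2 and Cd68 at day 35. Over all genes this held for 9.48%, 14.3%, 9.06% and 10.6% at the 4 days. P2ry12 at day 2 had 8.30, 8.73 and 7.08 CPM against 5.64, 6.53 and 5.76 CPM, a log2 fold change of 0.41 ± 0.18 (adjusted p = 0.642 by edgeR). Outside day 7, the log2 fold changes of the 9 genes lay between -0.36 for Aif1 at day 35 and 0.87 for Trem2 at day 35.

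In DRG at day 7, 0.157% of all genes were called, and none without replicate 2. Of the wider lists there, 1 of 14 tested resident macrophage genes and 1 of 15 tested genes of the TREM2 axis and lipid handling were called. They were Clec10a, a galactose-binding lectin (log2 fold change 1.40 ± 0.23, adjusted p = 0.0472 by edgeR), and Clec7a, the beta-glucan receptor Dectin-1 (1.68 ± 0.30, adjusted p = 0.0472). Of the 10 microglia genes tested 0 were called, with a median log2 fold change of 0.48, and of the 17 general myeloid genes 0, with a median of 0.76, against a median of about 0 over all genes. Called genes from other lists were Adipoq, Cidec and Fabp4 of fat cells, with log2 fold changes of 3.01 ± 0.48, 3.02 ± 0.50 and 2.86 ± 0.46, Tcf4 at 0.43 ± 0.07 and the glutamate transporter gene Slc1a2 at 0.70 ± 0.13.

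In paw none of the 9 genes was called at any day after PTX. Vehicle replicate 2, the library with many reads in no gene, was the lowest vehicle library for all of them but Trem2 and Itgam. For 8 of the 9, all but Siglech, the log2 fold changes at days 7 and 22 were above those at days 2 and 35. At day 7 all 9 had a positive log2 fold change, with a median of 0.93 against 0.00 over all genes, and 8 of the 9 had an unadjusted p under 0.05, as had 2091 of 15199 genes. At day 22, 8 of the 9 were positive with a median of 0.93, and 6 had an unadjusted p under 0.05, as had 2835 of all genes. The share of all genes called was 0% at day 2, 0% at day 7, 1.12% at day 22 and 0% at day 35. DESeq2 called 625 genes at day 7, with Csf1r, Itgam, Cd68 and Mrc1 among them, and 1321 at day 22, with Csf1r, Aif1, Itgam, Cd68 and Mrc1.

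Csf1r in paw had 101, 82.1 and 132 CPM in vehicle, 148, 145 and 177 CPM at PTX day 2, 189, 248.9 and 267 CPM at day 7, 210, 292 and 128 CPM at day 22 and 147, 105 and 133 CPM at day 35. All libraries of days 2 and 7 exceeded all vehicle libraries, while those of days 22 and 35 overlapped them. The log2 fold change was 0.58 ± 0.24 at day 2, 1.11 ± 0.24 at day 7, 0.93 ± 0.24 at day 22 and 0.34 ± 0.24 at day 35. The adjusted p was 0.0989 at day 7 and 0.0693 at day 22 by edgeR.

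Mrc1 in paw had 50.1, 41.0 and 69.7 CPM in vehicle, 79.5, 77.6 and 88.8 CPM at PTX day 2, 107, 183 and 175 CPM at day 7, 118, 299 and 95.8 CPM at day 22 and 109, 69.5 and 84.6 CPM at day 35. Libraries of days 2, 7 and 22 all exceeded vehicle, and at day 35 replicate 2 fell within the vehicle range. The log2 fold changes were 0.62 ± 0.36, 1.48 ± 0.36, 1.60 ± 0.36 and 0.76 ± 0.36 in order of day. The value at day 22 was the nearest to a call in paw among the 9 (adjusted p = 0.0534 by edgeR).

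Cd68 in paw had 14.6, 12.9 and 19.9 CPM in vehicle, 29.8, 22.9 and 35.0 CPM at PTX day 2, 22.6, 42.1 and 31.3 CPM at day 7, 30.5, 54.2 and 26.9 CPM at day 22 and 25.9, 19.99 and 21.1 CPM at day 35. It was the only one of the 9 genes whose PTX libraries lay above all vehicle libraries at every day. Its log2 fold change was 0.89 ± 0.27 at day 2, 0.97 ± 0.27 at day 7, 1.17 ± 0.27 at day 22 and 0.55 ± 0.27 at day 35, with adjusted p of 0.599, 0.146, 0.0544 and 0.916 by edgeR.

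Itgam had 17.6, 17.9 and 29.9 CPM in paw vehicle, 33.8, 54.7 and 45.8 CPM at PTX day 7 and 36.9, 85.9 and 34.1 CPM at day 22. Neither day overlapped vehicle, and the log2 fold changes were 0.99 ± 0.31 and 1.19 ± 0.32. Aif1 had 1.54, 1.15 and 3.00 CPM in vehicle and 4.62, 6.11 and 4.56 CPM at day 22, with no overlap and a log2 fold change of 1.34 ± 0.43. Trem2 had 4.45, 5.12 and 7.65 CPM in vehicle, 7.11, 13.7 and 11.2 CPM at day 7 and 8.30, 13.9 and 8.07 CPM at day 22. Trem2 overlapped vehicle at day 7 but not at day 22, with log2 fold changes of 0.84 ± 0.33 and 0.74 ± 0.33. It overlapped vehicle at days 2 and 35 as well.

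The microglial markers in paw had log2 fold changes between 0.89 and 0.93 at day 7 and between -0.13 and 0.74 at day 22. Siglech had 2.66, 1.09 and 2.86 CPM in vehicle, 3.38, 4.05 and 5.64 CPM at PTX day 7 and 2.36, 2.16 and 1.80 CPM at day 22. Only day 7 lay above vehicle, and the log2 fold changes were 0.93 ± 0.31 and -0.13 ± 0.31. Gpr34 had 12.75, 16.4 and 23.1 CPM at day 7 against 8.03, 5.63 and 12.72 CPM in vehicle, which all but met, and 12.1, 17.2 and 7.36 CPM at day 22, which did. P2ry12 had 10.5, 13.1 and 17.5 CPM at day 7 against 6.61, 4.66 and 10.1 CPM in vehicle, and 12.5, 18.4 and 6.84 CPM at day 22. The median log2 fold change of the 3 microglial markers was 0.93 at day 7 and 0.40 at day 22, and that of the 6 general genes was 0.98 and 1.18. Without replicate 2 of day 22 these medians at day 22 were 0.08 and 0.73, so the general genes then stood lower at day 22 than at day 7. A joint test over the 4 PTX days in paw called 0 of the 9 genes and 0% of all genes by edgeR. The lowest adjusted p was that of Siglech, at 0.18 by edgeR. DESeq2 called 2 of the 9 genes and 1640 of all genes in the same joint test. With tests that differ in this way, no order of the days is established.

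The number of the 9 genes with all PTX libraries above all vehicle libraries in paw was 3 at day 2, 7 at day 7, 5 at day 22 and 1 at day 35. Over all genes the share was 8.38%, 19.3%, 17.7% and 3.95%. The library with the highest values at day 22 was replicate 2 for each of Csf1r, Trem2, Aif1, Itgam, Cd68 and Mrc1. Without it, the log2 fold change was 0.94 ± 0.25 for Mrc1, 0.81 ± 0.25 for Cd68, 0.65 ± 0.23 for Itgam, 0.46 ± 0.34 for Trem2, 0.38 ± 0.37 for P2ry12 and 0.08 ± 0.34 for Gpr34, and no gene of the table was called. Without replicate 3 of that group, Csf1r, Itgam, Cd68 and Mrc1 were called, with adjusted p between 0.0116 and 0.0244 by edgeR. Libraries outside the comparison also counted through the shared spread. Without day 7 replicate 1, Cd68 and Mrc1 were called at day 22, and without day 35 replicate 2, Mrc1 was. Without day 22 replicate 2, Csf1r, Itgam and Mrc1 were called at day 7, and without day 22 replicate 3, Csf1r was.

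**Figure D4:**
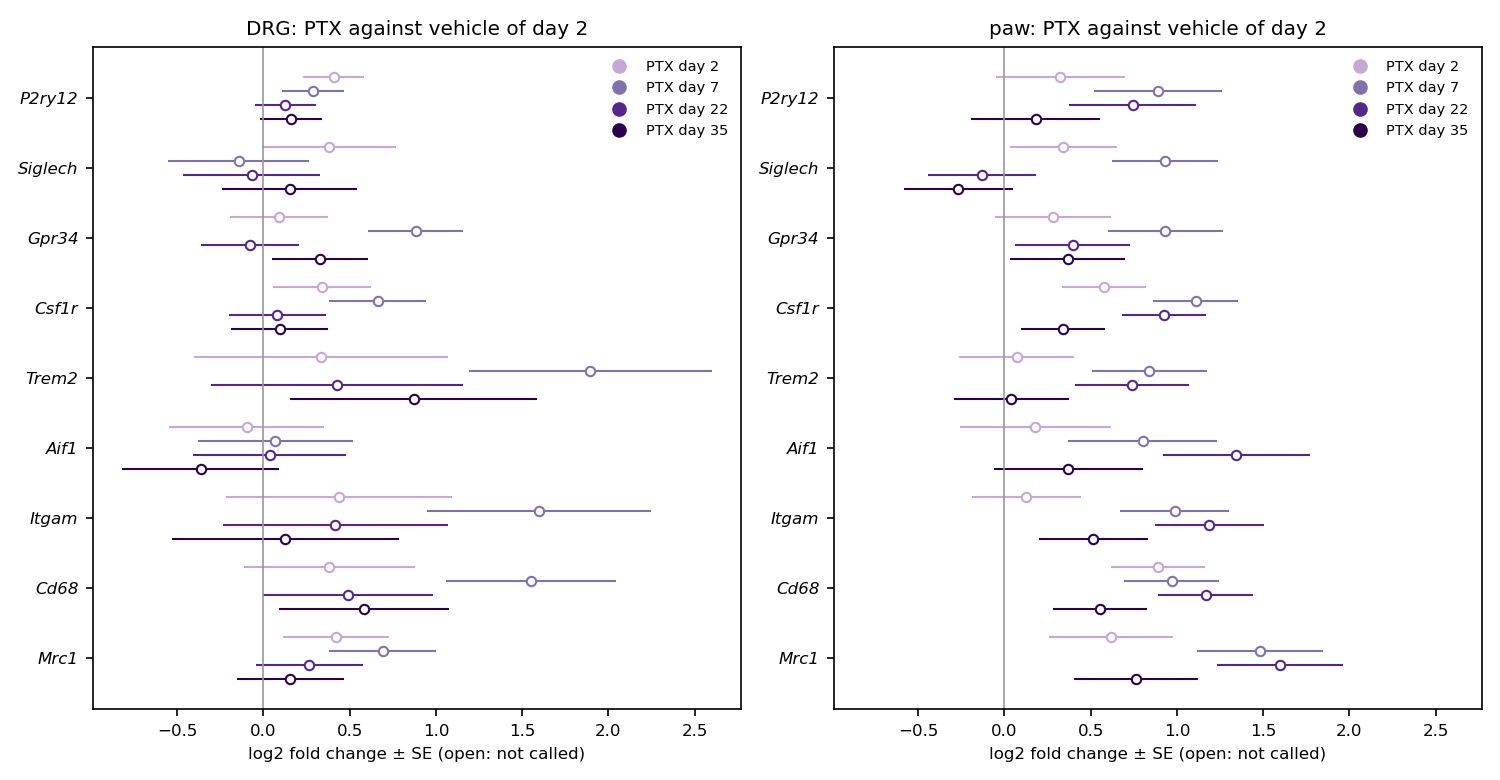
Log2 fold change with its standard error (horizontal axis) of each gene at the 4 days after PTX against vehicle of day 2, in DRG (left) and paw (right). Every point is open because none was called. In DRG the day 7 values of Trem2, Itgam and Cd68 lie far right with wide errors, and in paw days 7 and 22 lie to the right of days 2 and 35 for the 6 general genes.

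Other macrophage genes in paw stood with the 9. At day 22, 4 of 17 resident and border macrophage genes were called higher, where 1.12% of all genes were called in either direction. No list gene stayed called at day 22 without replicate 2 of that day or in the fit of only the groups compared. Both of those fits called 0 genes. Cd209f and Cd209d, lectins of the DC-SIGN family, had log2 fold changes of 2.36 ± 0.35 and 1.89 ± 0.37, Lyve1 had 1.70 ± 0.34 and F13a1, a coagulation factor chain made by such macrophages, had 1.57 ± 0.33. Of 17 general myeloid genes 3 were called higher: the complement gene C1qb (1.58 ± 0.35), Laptm5 (1.24 ± 0.25) and Lcp1 (1.13 ± 0.23). In the list around the CSF1 receptor, Sfpi1, which encodes PU.1, was called at 1.52 ± 0.27 (adjusted p = 0.0363 by edgeR), and in the list around Trem2 the receptor kinase gene Axl was called at 0.93 ± 0.19. Of 11 tested microglia genes 1 was called, the P-selectin ligand gene Selplg (1.17 ± 0.21), which other leukocytes also express. The ligand gene Csf1 had a log2 fold change of 0.87 ± 0.22 and Il34 one of -0.04 ± 0.20, and neither was called.

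Genes of other cells moved with the macrophage genes at the same day. Their calls stand beside the same 1.12% of all genes and were likewise lost without replicate 2 of day 22. Of 8 mast cell genes 5 were called higher in paw at day 22, among them Cma1, Cpa3, Tpsb2 and Fcer1a, and their summed level was 190 to 284 CPM at day 22 and 193 to 268 CPM at day 7, against 92.9 to 131 CPM in vehicle. Of 10 fibroblast and matrix genes 3 were called higher at day 22, Col1a1 at 1.97 ± 0.33, Col1a2 at 1.58 ± 0.33 and Sparc at 1.29 ± 0.27. Their sum was 15124 to 24412 CPM at day 22 against 7516 to 9667 CPM in vehicle. Fat cell genes Cfd and Cidec and the lymphatic receptor gene Flt4 were called as well. Replicate 3 of day 22 held 54.9 CPM of 11 lymphocyte genes, against 4.81 and 5.34 CPM in replicates 1 and 2. The part of the tissue's make-up in the values of the 9 genes was not tested.

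**Figure D5:**
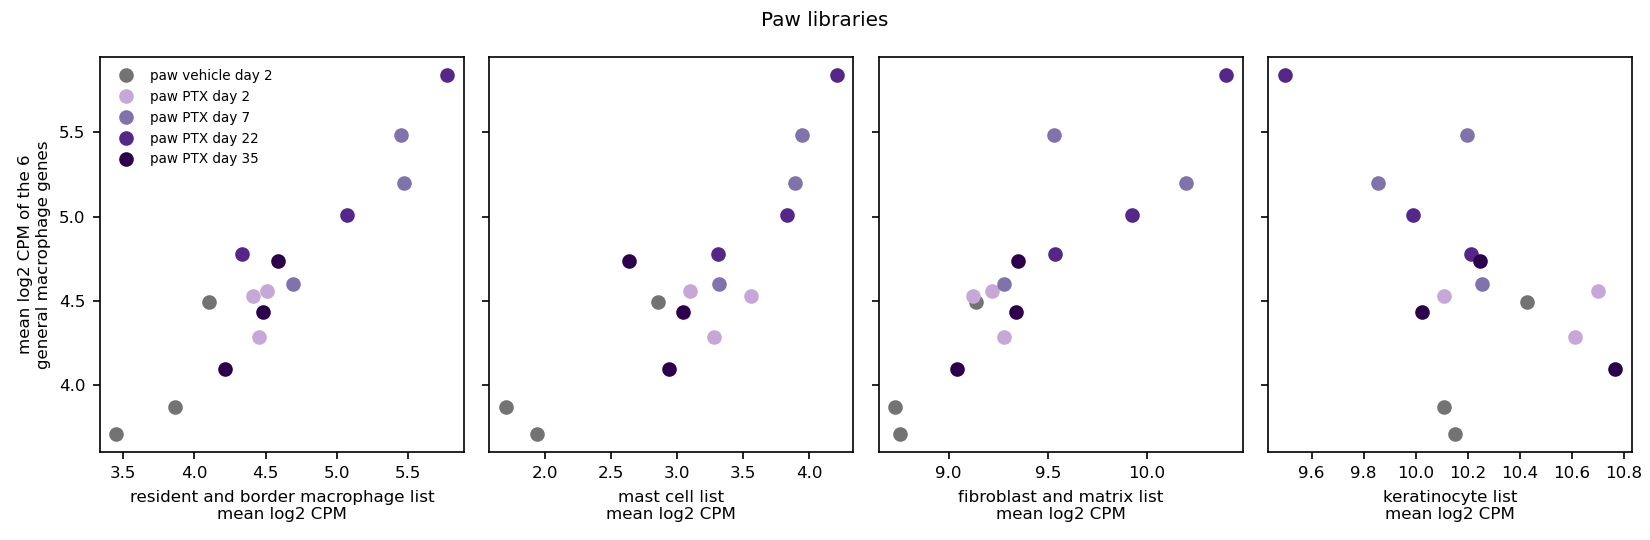
Mean log2 CPM of the 6 general macrophage genes (vertical axis) in each of the 15 paw libraries against the mean log2 CPM of 4 lists (horizontal axes): resident and border macrophage, mast cell, fibroblast and matrix, and keratinocyte genes. Replicate 2 of PTX day 22 is the highest library on the vertical axis and for the first 3 lists, and it is the lowest for the keratinocyte list.

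The PTX effect in DRG was compared with that in paw at each day, in 1 fit of the 30 libraries of both tissues. None of the 9 genes was called at any day, and of all genes 0% at day 2, 0.196% at day 7, 0.0245% at day 22 and 0.0184% at day 35 were. The 3 widest differences were those of Mrc1 at day 22, where the effect in DRG was lower by a log2 difference of -1.30 ± 0.49 (adjusted p = 0.236 by edgeR), of Aif1 at day 22, at -1.28 ± 0.64 (adjusted p = 0.395), and of Siglech at day 7, at -1.09 ± 0.52 (adjusted p = 0.355). Each day's comparisons share the vehicle libraries of their tissue. The data therefore do not separate the response of these genes in DRG from that in paw at any day.

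In spinal cord set A, none of the 9 genes was called between PTX and vehicle at day 1 or at day 7. No gene of the table was called in either comparison by edgeR (0% at day 1 and 0% at day 7), with 3398 and 2514 of 15815 genes at an unadjusted p under 0.05, while DESeq2 called 173 and 611 genes and none of the 9. At day 1, P2ry12 had 9.39, 17.8 and 17.5 CPM with PTX and 25.4, 20.4 and 16.2 CPM with vehicle. These groups overlapped, and the log2 fold change was -0.45 ± 0.18 (adjusted p = 0.183 by edgeR). All PTX libraries of that day are among the 5 with sensory neuron transcripts, so the comparison cannot be made without them. The PTX effect at day 7 minus that at day 1 called 0 of the 9 genes and 8.76% of all genes.

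At day 7 the sensory neuron genes were low in all set A libraries, at 126 to 145 CPM in sum. P2ry12 had 28.4, 29.9 and 24.7 CPM with PTX and 24.1, 25.1 and 24.7 CPM with vehicle. Siglech, Gpr34, Csf1r and Cd68 had log2 fold changes between -0.05 and 0.15. Mrc1 had one of -0.55 ± 0.36 and Aif1 one of 0.33 ± 0.26. Trem2 had 11.8, 7.77 and 8.53 CPM with PTX and 7.53, 7.50 and 7.17 CPM with vehicle, all PTX libraries being higher, as for 26.8% of all genes, and a log2 fold change of 0.27 ± 0.23. Itgam had 20.6, 19.5 and 17.1 CPM with PTX and 23.6, 25.7 and 26.1 CPM with vehicle. It was the only one of the 9 with all PTX libraries lower, as for 11.9% of all genes, at a log2 fold change of -0.47 ± 0.19 (adjusted p = 0.232 by edgeR), and at -0.48 ± 0.11 with the 5 libraries left out of the fit (adjusted p = 0.101). Fitted on its own pair of groups Itgam passed the threshold at -0.48 (adjusted p = 0.00593), in a fit that called 1739 genes. The monocyte genes were also lower with PTX without overlap, at 78.6 to 103 CPM in sum against 123 to 152 CPM. The neutrophil genes overlapped, at 48.1 to 194 CPM with PTX and 137 to 265 CPM with vehicle. The part of these cells in the Itgam values was not tested.

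Vehicle at day 7 against vehicle at day 1 in set A called 1 of the 9 genes and 19.7% of all genes. Csf1r had 103, 109 and 116 CPM at day 7 and 107, 72.9 and 69.9 CPM at day 1, a log2 fold change of 0.46 ± 0.15 (adjusted p = 0.0378 by edgeR). The day 1 library without sensory neuron transcripts was the high one, within the range of day 7. Against that library alone, which was assumed to vary like the other groups, Csf1r differed by 0.14 ± 0.09, and 0 of the 9 genes and 0.101% of all genes were called. Leaving out either vehicle day 1 library with sensory neuron transcripts gave Csf1r an adjusted p of 0.141 or 0.139 by edgeR, and leaving out vehicle day 7 replicate 1, 2 or 3 gave 0.0759, 0.0824 or 0.105. The Csf1r call was also lost with total count scaling (adjusted p = 0.08 by edgeR), in the fit of its own groups (0.0789) and with the replicate block (0.0561). Without vehicle day 1 replicate 1, the library low in those transcripts, Csf1r, Siglech and Itgam were called higher at day 7.

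In set B none of the 9 genes was called at either later day against day 1. P2ry12 had 17.3, 20.1 and 19.3 CPM at PTX day 1, 28.1, 25.8 and 24.4 CPM at day 22 and 23.7, 25.4 and 22.1 CPM at day 35. Both later days lay above day 1 without overlap. The log2 fold change was 0.45 ± 0.18 for day 22 (adjusted p = 0.285 by edgeR) and 0.28 ± 0.18 for day 35. With the 5 set A libraries left out of the fit, the spread shared by all cord groups was smaller, and P2ry12 at day 22 was called at 0.48 ± 0.09 (adjusted p = 0.0146), beside 1.96% of all genes.

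Gpr34 in set B had 6.52, 6.68 and 6.49 CPM at day 1, 10.2, 9.39 and 8.64 CPM at day 22 and 8.41, 10.6 and 7.45 CPM at day 35, with neither later day overlapping day 1. Its log2 fold changes were 0.50 ± 0.23 and 0.38 ± 0.23, and without the 5 libraries 0.52 ± 0.14 (adjusted p = 0.0767 by edgeR) and 0.39 ± 0.14. Siglech had 8.45, 7.81 and 9.10 CPM at day 1, 10.96, 11.1 and 8.45 CPM at day 22, which overlapped day 1, and 10.7, 11.4 and 9.77 CPM at day 35, which did not. Csf1r did not separate the days in the same way, with 107, 121 and 118 CPM at day 1, 110, 113 and 108 CPM at day 22 and 120, 127 and 123 CPM at day 35, and log2 fold changes of -0.08 ± 0.15 and 0.04 ± 0.15.

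Mrc1 in set B had 4.75, 13.2 and 5.44 CPM at day 1 and 3.22, 2.59 and 3.47 CPM at day 22, all lower than at day 1. Its log2 fold change was -1.33 ± 0.38 (adjusted p = 0.119 by edgeR), and replicate 2 of day 1 was far above the other libraries. Without that replicate the log2 fold change was -0.75 (adjusted p = 0.492 by edgeR). Of 13 tested genes of resident and border macrophages, 3 were called lower at day 22, where 1.09% of all genes were called in either direction. They were Cd163, the haemoglobin scavenger receptor gene, at -2.62 ± 0.46, Lyve1 at -2.13 ± 0.38 and F13a1 at -1.66 ± 0.32. Mertk, a receptor for the clearance of dying cells, was also called lower, at -1.31 ± 0.20, as was the monocyte gene Ms4a6c at -2.25 ± 0.45. The lipid-binding gene Fabp5 was called higher at 0.54 ± 0.12. Of the 12 microglia genes 0 were called. The genes of these lists were not looked at without replicate 2 of day 1. The summed muscle genes were 20.4 to 1207 CPM at day 1 and 13.2 to 124 CPM at day 22. The fat cell genes summed to 112 to 145 CPM at day 1 and 75.9 to 83.3 CPM at day 22, and the monocyte genes to 146 to 206 CPM and 81.0 to 86.4 CPM, both without overlap. The fibroblast and matrix genes summed to 2767 to 5566 CPM at day 1 and 2528 to 2951 CPM at day 22, which overlapped. The part of other tissue in these values was not tested.

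Day 22 against day 1 in set B called 0 of the 9 genes and 1.09% of all genes, and day 35 against day 1 called 0 of the 9 and 0.0885%. DESeq2 called Mrc1 alone at day 22 and none of the 9 at day 35. The later day lay above day 1 without overlap for P2ry12, Gpr34 and Aif1 at day 22 and for P2ry12, Siglech, Gpr34, Itgam and Cd68 at day 35, against 7.69% and 6.54% of all genes. Set B has no vehicle, so drug and day cannot be told apart there either.

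Set B PTX day 1 against set A PTX day 1, which share drug and day, called 3 of the 9 genes and 32.9% of all genes, so the 9 did not stand out. Csf1r was higher in set B by a log2 fold change of 0.56 ± 0.15, Trem2 by 0.77 ± 0.23 and Itgam by 0.53 ± 0.19 (adjusted p = 0.00882, 0.0182 and 0.0444 by edgeR). All 3 set A libraries of this comparison carry sensory neuron transcripts, and all 10 sensory neuron genes were called lower in set B. Of 12 microglia genes 6 were called higher in set B and of 13 resident macrophage genes 4 were called lower. In the fit of only the groups compared none of these calls held, with adjusted p of 0.136 for Csf1r, 0.18 for Trem2 and 0.11 for Itgam by edgeR. When 1 library was left out, the calls of Itgam and Trem2 were the less firm. Itgam then had an adjusted p as high as 0.142 by edgeR. Trem2 had one of 0.0967 without set A replicate 1 and 0.0961 without set B replicate 3. Without set A replicate 2, P2ry12, Siglech, Gpr34 and Mrc1 were called as well, and without set B replicate 2 Mrc1 was, lower in set B. The sets and the sensory neuron transcripts cannot be told apart here.

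Across libraries of a tissue the 9 genes moved together to different degrees. The correlations below are of log2 CPM, as descriptions over libraries that share groups, depth and tissue make-up. In the 15 paw libraries Csf1r was followed most closely by Cd163 (Pearson's r = 0.97), Lrp1, Dse, Man1a and Tgfbr2, and P2ry12 by Ptpro (0.94), Tlr7, Steap2, Dcn and Antxr2. Csf1r and P2ry12 had an r of 0.93 with each other there, and Mrc1 one of 0.94 with Csf1r. In the 15 DRG libraries Csf1r was followed by Dab2 (0.96), Slc11a1, Tgfbi, Stab1 and Calu, and P2ry12 by Meox1 (0.87), Fam55d, Ppp4r1, Athl1 and Csf1r (0.85).

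In the 21 cord libraries P2ry12 was followed by P2ry13 (0.97), Tst, Stmn4, Trim59 and Sox2ot, and Csf1r by Zfp773 (0.94), Cstf2t, Ap3m2 and Ctss. Those values changed without the 5 libraries that carry sensory neuron transcripts. In the other 16, the r of Csf1r with P2ry12 was -0.24, where it had been 0.74 over all 21. P2ry12 had an r of 0.75 with Gpr34, 0.71 with Siglech and -0.33 with Mrc1 in the 16, and the genes nearest to it were Fgfrl1 (0.95), C630043F03Rik, Gng11, Lap3 and Bche. Those nearest to Csf1r in the 16 were Supt5h (0.80), C1qb, Cttn, Man2b1 and Cebpa.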

How the data were processed

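Polyadenylated RNA was sequenced from 51 libraries as 50 base reads from about 500 ng of RNA. The authors deposited raw counts per gene symbol, made with bcl2fastq, TopHat2, the mm9 genome and HTSeq per the submitters' processing notes, versions not given. The lines that name no gene were left out of library sizes. Counts were tested with edgeR 4.0.16 in R 4.3.3 (TMM scaling, filterByExpr with a minimum count of 10, robust quasi-likelihood F test, Benjamini-Hochberg adjustment over all genes tested) in 1 fit per tissue, 1 of DRG and paw together and 1 of the vehicle libraries. The standard error is the size of the log2 fold change divided by the square root of F. CPM values use the summed gene counts, and log2 CPM a prior count of 2. Lists hold at most 4 named genes per comparison, those called with the smallest adjusted p, and the correlations name the 5 highest, from genes with a mean log2 CPM over 1, except 1 gene that is not reported here; Tmem119, P2ry13, Olfml3, Folr2, Csf1, Il34 and the genes named between tissues were chosen after their values were seen. The script's tests were checked on simulated counts. Alternatives were other scaling, no filter, DESeq2 1.42.0, fewer groups, a replicate block and left-out libraries. Members and lists were chosen with earlier results of these data known. No libraries of the same group held identical values, and libraries of different groups were not compared in this way. Counts cover counting error only, and total reads per library limit the precision of low genes.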

Additional observations from a re-analysis of the deposited data

How the results depend on the processing

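The number of the 9 genes called was unchanged in most settings, and no called log2 fold change changed sign in any. DESeq2 in place of edgeR called 2 in DRG at day 7, 4 and 5 in paw at days 7 and 22, 2 among the paw PTX days, 3 in cord vehicle day 7 against day 1, 1 in set B day 22 against day 1 and 4, from 3, in set B against set A. Scaling to total counts called 2 in paw at day 22, 0 in cord vehicle day 7 against day 1 and 2 in set B against set A. No filter on low counts called 6, from 7, in DRG against paw, 7, from 8, in cord against DRG and 2 in set B against set A. Fits of only the groups compared called 1 in paw at day 7, 1 in cord set A at day 7, 0 in vehicle day 7 against day 1, 0 in set B against set A, 5 in DRG against paw and 7 in cord against DRG. Without the 5 cord libraries, a choice made after seeing the data, vehicle day 7 against day 1 called 0 and set B day 22 against day 1 called 1; PTX against vehicle at day 1, the difference of effects and set B against set A could not be made. Leaving out 1 library at a time gave 0 to 4 in DRG at day 7, 0 to 3 in paw at day 7, 0 to 4 in paw at day 22, 0 to 3 in vehicle day 7 against day 1, 0 to 1 in the set A difference of effects, 1 to 7 in set B against set A and 5 to 8 in cord against DRG. The 5 came without DRG vehicle replicate 2, and the 7 without set A PTX day 1 replicate 2. For these counts the cause was not tested. The counts over all genes moved more: DRG day 7 called 24 genes, 898 by DESeq2, 140 with total counts and 0 in the fit of its own groups; paw day 22 called 170, 1321, 360 and 0, and 51 with RLE scaling; set A day 7 called 0, but 1739 in the fit of its own groups. The replicate numbers gave no sign of pairing, since in 0 of 19 pairs of groups did all 3 correlations exceed 0.1. This check cannot exclude that DRG and paw samples of the same number came from 1 animal. Such a pairing is not in their joint fit. With the replicate block, 5 of the 9 genes were called in DRG against paw and 7 in cord against DRG, and the counts of the 9 in the other comparisons stayed as they were, although in vehicle day 7 against day 1 the 1 gene called was Itgam (adjusted p = 0.0353 by edgeR) in place of Csf1r (0.0561), while DRG day 7 called 155 genes in all and paw day 22 called 75. Aif1, Siglech, Gpr34 and Trem2 in DRG are limited by their counts, which went down to 33, 10, 22 and 21 reads in a library.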
